A study of Mus musculus with 16 samples.

Results

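The 3 vesicular glutamate transporter genes of the mouse, *Slc17a6*, *Slc17a7* and *Slc17a8*, were followed in single cells of dorsal root ganglia (DRG) at embryonic day 15.5 (e15.5) and postnatal day 1 (p1). They are 3 of 49671 genes in the deposited tables and were chosen by name, as the whole of this transporter family, not by their values. The e15.5 cells came from *PvtdTom* embryos, a BAC line in which the parvalbumin promoter drives tdTomato, were sorted by fluorescence and fill 10 libraries of 96 wells. The p1 cells fill 6 libraries of 96 wells labelled Trpv1Cre; PvFlp; Ai65 and PvCre; Ai14, in which tdTomato depends on *Trpv1* history together with parvalbumin or on parvalbumin alone. According to the study's methods the postnatal cells were picked by hand, while the labels give fluorescence sorting for all libraries. The methods also name both a Basbaum and a Hoon Trpv1Cre driver, which the labels do not separate. The labels of a p1 library name both genotypes and no library's segmental level is given, so neither was compared. Parvalbumin also marks a subset of cutaneous mechanoreceptors, so the reporter alone does not make a cell a proprioceptor. By the study's methods, the age, the mouse line and the way of collecting cells changed together. Their parts in any difference between e15.5 and p1 cannot be told apart.

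These transporters load glutamate into synaptic vesicles, using the gradient set up by the vesicular proton pump. *Slc17a7* encodes VGLUT1, the transporter known from the central terminals of proprioceptors and other large-diameter sensory neurons. *Slc17a6* encodes VGLUT2, which many glutamatergic sensory neurons use, and *Slc17a8* encodes VGLUT3, known from low-threshold mechanoreceptors with unmyelinated fibers and from several neurons that release another transmitter as well. Proprioceptors report muscle length and tension to the spinal cord and are glutamatergic.

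*Slc17a6* (ENSMUSG00000030500) lies on chromosome 7 (51622006 to 51671119, plus strand, GRCm38) and *Slc17a7* (ENSMUSG00000070570) on the same chromosome (45163949 to 45176142, plus strand). *Slc17a8* (ENSMUSG00000019935) lies on chromosome 10 (89574020 to 89621253, minus strand). All 3 are protein-coding genes. The balance of *Slc17a7* and *Slc17a6* differed between the ages. Their promoters were taken as 250 bases before and 50 after the annotated start of transcription (RefSeq, GRCm38.p6). The windows are chr7:45163671-45163970, plus strand, for *Slc17a7* and chr7:51621580-51621879, plus strand, for the upstream one of the 2 *Slc17a6* starts. They are written 5′ to 3′, and capitals mark the GC box, GGGCGG on either strand.

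Slc17a7: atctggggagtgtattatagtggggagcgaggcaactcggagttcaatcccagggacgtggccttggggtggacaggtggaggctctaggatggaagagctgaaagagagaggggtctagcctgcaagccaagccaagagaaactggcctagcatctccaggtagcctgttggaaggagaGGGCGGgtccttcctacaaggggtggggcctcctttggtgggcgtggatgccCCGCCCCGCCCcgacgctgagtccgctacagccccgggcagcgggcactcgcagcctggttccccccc
Slc17a6: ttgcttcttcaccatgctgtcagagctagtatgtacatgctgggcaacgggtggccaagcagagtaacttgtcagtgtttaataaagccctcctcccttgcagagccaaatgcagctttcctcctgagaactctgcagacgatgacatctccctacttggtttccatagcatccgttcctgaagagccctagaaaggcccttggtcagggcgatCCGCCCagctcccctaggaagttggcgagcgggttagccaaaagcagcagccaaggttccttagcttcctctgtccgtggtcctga

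The *Slc17a7* promoter holds 3 GC boxes, a pair of which overlap, 13 CpG dinucleotides and 63.7% G or C. The *Slc17a6* promoter holds 1 GC box, 8 CpG dinucleotides and 53.7% G or C, next to a median of 52.7% over 32851 RefSeq promoters. A GC box is found in 35.7% of those promoters. The letters TATAAA (in 13.6% of promoters), TGTGGT, the core that Runx factors bind (16.8%), and CCGGAA, a core that ETS factors bind (14.9%), were searched on both strands and are in neither window.

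Values are counts of unique molecular identifiers (UMIs), and CPM is the number of UMIs that a gene takes in every 1000000 from the wells summed. The method reads transcripts from their 3′ ends, so a level does not grow with the length of a gene. Whether the 3′ ends of different genes were counted equally well was not tested. A well was taken as a sensory neuron when it held at least 10000 UMIs and *Avil* and *Isl1*, both sensory neuron genes, summed to at least 100 CPM. This kept 434 of 960 wells at e15.5 and 365 of 576 at p1. A kept well with at least 3 of the proprioceptor genes *Pvalb*, *Runx3*, *Etv1* and *Ntrk3* at 50 CPM or more was called a proprioceptor, which gave 352 wells at e15.5 (10 to 72 per library) and 359 at p1 (11 to 83 per library). All 4 genes reached 50 CPM in 326 and 351 of them, and 26 and 8 wells had exactly 3. The remaining kept wells, 82 at e15.5 and 6 at p1, are other sensory neuron wells, of which 38 and 6 had exactly 2 of the genes.

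The labelled cell type did not hold for a large part of the e15.5 wells. Of 871 wells with at least 10000 UMIs, 437 had *Avil* and *Isl1* under 100 CPM, and in the median one of these the connective tissue genes *Col1a1*, *Col1a2*, *Col3a1* and *Dcn* summed to 23225 CPM; at p1 there were 4 such wells of 369. The e15.5 wells of this kind serve below as background. Proprioceptor wells held a median of 110618 UMIs at e15.5 and 55470 at p1, and the mitochondrial share of the median well was 3.85% to 6.0% per library at e15.5 and 8.85% to 13.1% at p1. In the sums of proprioceptor wells, the 6 glia genes ranged over 186 to 1148 CPM in the e15.5 libraries and 134 to 668 CPM in the p1 libraries, the 4 connective tissue genes over 24.7 to 601 and 95.3 to 296, the 2 hemoglobin genes over 2.27 to 356 and 2.05 to 429, and the 7 nociceptor genes over 31.8 to 376 and 45.3 to 172. Of the motor neuron genes, *Mnx1* was at 0 at both ages and *Chat* at 0 at e15.5 and 0.0365 CPM at p1, while *Slc5a7* stood at 10.3 and 2.41 CPM. The 5 mechanoreceptor genes summed to 28.0 to 245 CPM per library at e15.5 (median 93.2) and 157 to 274 CPM at p1 (median 200.2), among them *Maf* at 41.8 and 111 CPM, *Gfra2* at 13.0 and 57.3 CPM and *Ntrk2* at 3.52 and 14.3 CPM. The part of these transcripts in the differences between ages was not tested. Wells of a library are not replicates, so libraries were compared. The labels do not say that libraries came from separate animals, and p-values measure the spread between libraries only.

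*Slc17a7* was far higher in proprioceptors at p1 than at e15.5, while *Slc17a6* was abundant at both ages and *Slc17a8* gave few UMIs at either. Summed over the proprioceptor wells of a library, *Slc17a7* ranged from 7.56 to 25.9 CPM at e15.5, with a median of 18.5 (17.8 ± 5.04, SD, n = 10 libraries). At p1 it ranged from 146 to 236 CPM, with a median of 181 (187 ± 35.2, n = 6). The groups did not overlap: the lowest p1 library stood 5.63-fold above the highest e15.5 library, and the ratio of the means was 10.5. Every p1 library was above every e15.5 library for 7.28% of the 13955 genes tested.

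**Figure D1:**
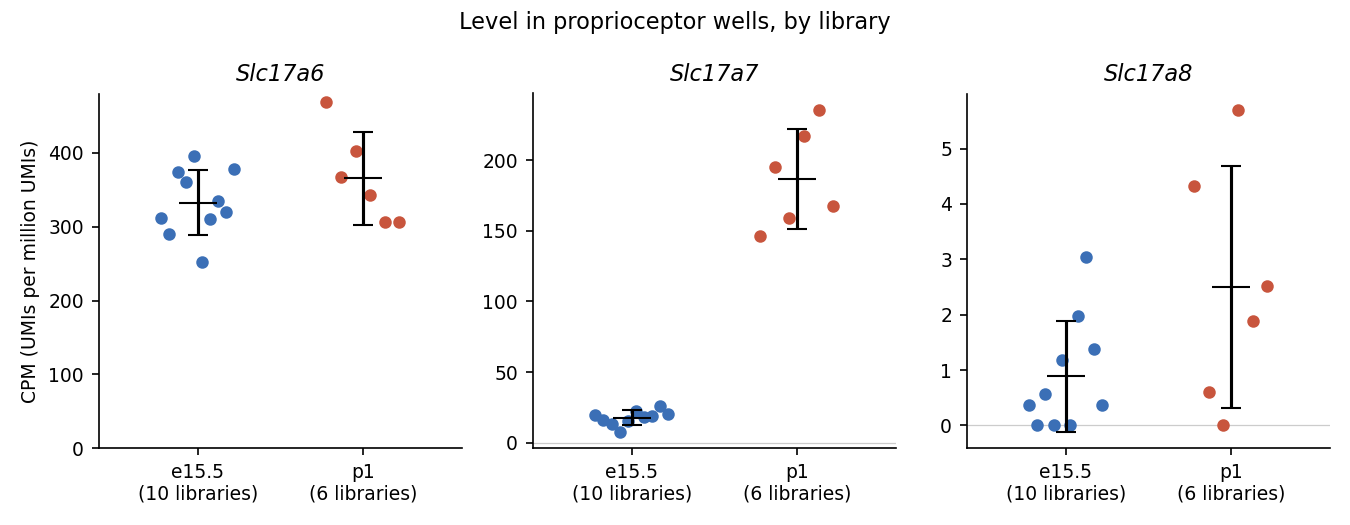
Level of each transporter gene in the summed proprioceptor wells of every library, in CPM on linear axes that differ between panels. Points are libraries, and the black marks give the mean and SD of 10 libraries at e15.5 and 6 at p1. For *Slc17a7* the p1 libraries all lie above the e15.5 libraries, while for *Slc17a6* and *Slc17a8* the ages overlap.

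In edgeR's quasi-likelihood test on the library sums, *Slc17a7* rose by 3.60 on the log2 scale (SE 0.163, 95% interval 3.28 to 3.92, adjusted p = 7.09e-13), a 12.1-fold change after TMM scaling. The comparison moved a large part of the transcriptome, with 30.5% of tested genes called higher at p1 and 32.0% called lower, and without TMM scaling 3032 were called higher and 6152 lower in place of 4260 and 4459. Within that background, 91 of the 13955 genes had a log2 fold change at least as high as that of *Slc17a7*. Scaled by library size alone the median gene shifted by -0.26 and *Slc17a7* rose by 3.36, or 3.63 relative to that median. It was called under every other setting tried, including leaving out each library in turn. In an exact two-sided permutation test over libraries, the difference in mean log2 CPM was 3.44 with p = 0.00025, the smallest that 8008 arrangements of 10 and 6 libraries can give.

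*Slc17a6* changed little in CPM between the ages. Its library values ran from 252 to 395 CPM at e15.5, with a median of 327 (333 ± 44.6, n = 10), and from 306 to 470 CPM at p1, with a median of 355 (366 ± 62.8, n = 6). The ranges overlapped, with 2 of 6 p1 libraries above the highest e15.5 library. After TMM scaling the log2 change was 0.36 (SE 0.105, edgeR's adjusted p = 0.0060), a 1.28-fold rise. Direction and call held under 24 of 26 other settings. With library size only the log2 change was 0.13 (edgeR's adjusted p = 0.30), or 0.39 relative to the median gene. With no filter on low counts it was 0.25 (edgeR's adjusted p = 0.095). The exact permutation test on log2 CPM, without TMM scaling, gave a difference of 0.13 with p = 0.26. The same exact permutation test gave a difference of 0.33 (p = 0.0355) on the log2 of the mean CPM of wells, and of 0.863 UMIs (p = 0.0272) on the mean of thinned wells, 2.80 at e15.5 and 3.67 at p1. The estimate moved from 0.13 to 0.70 over the settings, the highest after wells had been thinned to equal depth. The size and the call of the rise of *Slc17a6* thus depended on the scale, the filter and the weight given to deep wells.

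The balance of both genes was tested within libraries, where depth and scaling cancel. *Slc17a7* made up 2.06% to 8.08% of the UMIs of *Slc17a6* and *Slc17a7* together in the e15.5 libraries (5.21% ± 1.80, n = 10). In the p1 libraries it made up 23.7% to 43.5% (34.1% ± 7.12, n = 6). No e15.5 library came near the p1 libraries, and *Slc17a6* kept the larger share in all 16. The log2 ratio of *Slc17a7* to *Slc17a6* differed by 3.27 between ages (exact two-sided permutation test, p = 0.00025, again the smallest possible), and it differed in the same direction under each alternative.

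**Figure D2:**
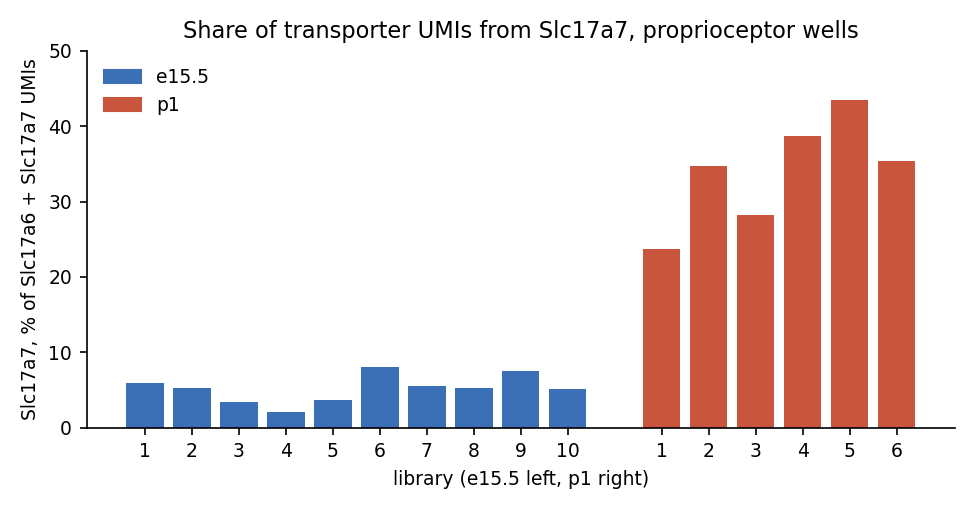
Share of *Slc17a7* among the UMIs of *Slc17a6* and *Slc17a7*, in percent, in the proprioceptor wells of each library. Bars are single libraries, 10 at e15.5 (blue, left) and 6 at p1 (red, right), with the highest e15.5 bar at 8.08% and the lowest p1 bar at 23.7%.

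At p1 *Slc17a7* was found in nearly all proprioceptors. As deposited, a *Slc17a7* UMI was found in 242 of 352 wells at e15.5 (68.8%, exact binomial 95% interval 63.6% to 73.6%) and in 351 of 359 at p1 (97.8%, 95.7% to 99.0%). Since wells differed in depth, each was also thinned to 10000 UMIs, after which the shares were 14.2% (10.7% to 18.3%) and 81.3% (76.9% to 85.2%). In the 437 background wells, with a median of 26755 UMIs, the share was 2.52% as deposited and 0.458% after thinning, so the e15.5 share in proprioceptors was above background. At p1 no such background could be measured, since 4 wells with at least 10000 UMIs had low *Avil* and *Isl1* and 3 of them held *Slc17a7* (6 UMIs). These intervals cover counting error only, and wells that share a library are not independent.

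The median proprioceptor well held 13.8 CPM of *Slc17a7* at e15.5 (10th to 90th percentile 0 to 43.6) and 168 CPM at p1 (84.0 to 330). For *Slc17a6* the medians were 312 and 354 CPM. After thinning, *Slc17a6* was found in 88.1% and 94.2% of the wells, against 12.4% of background wells. The background wells held it unevenly, at 1.84 CPM in library 8 and 384.5 CPM in library 10, beside 379 CPM in the proprioceptors of library 10. For *Slc17a6* they are thus no clean floor. Of thinned proprioceptor wells, 11.9% at e15.5 and 76.9% at p1 held UMIs of both genes, and 76.1% and 17.3% held *Slc17a6* only. *Slc17a7* without *Slc17a6* was rare at both ages, with 2.27% and 4.46% of wells. More *Slc17a7* than *Slc17a6* UMIs were counted in 2.56% of thinned wells at e15.5 and in 18.7% at p1. The typical p1 proprioceptor thus held transcripts of both transporters. Within libraries, log2 levels of the pair were weakly correlated across wells, and the sign of Pearson's r differed between libraries. Over 10 e15.5 libraries r ran from -0.208 to 0.336 (median 0.193), and over 6 p1 libraries from -0.0811 to 0.381 (median 0.158).

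**Figure D3:**
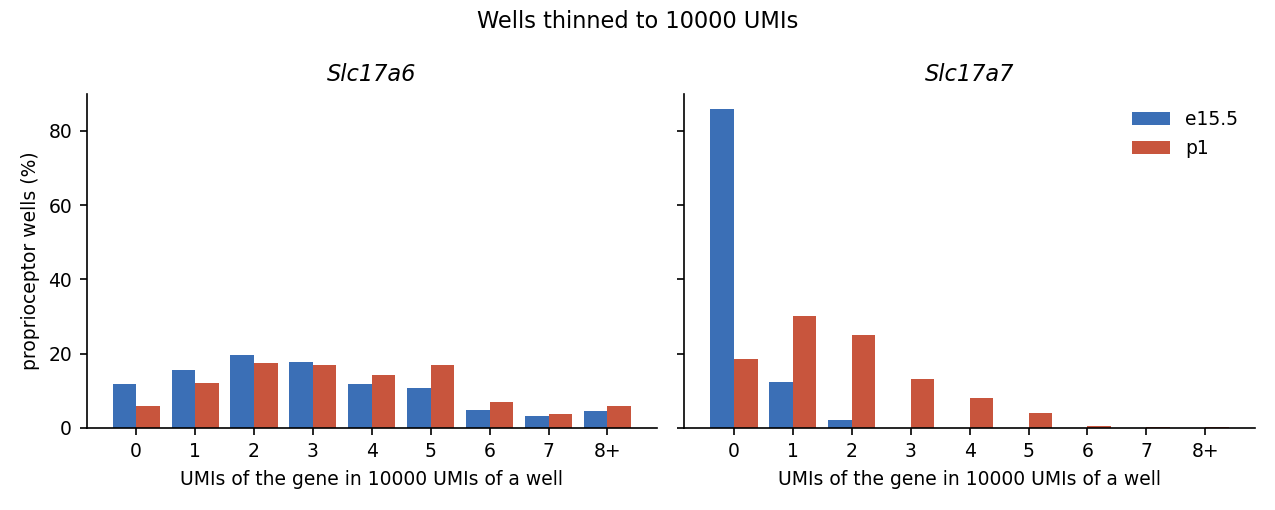
Distribution of *Slc17a6* (left) and *Slc17a7* (right) UMIs over proprioceptor wells thinned to 10000 UMIs each, as percent of the 352 wells at e15.5 (blue) and the 359 at p1 (red); the last bin holds 8 UMIs or more. No *Slc17a6* UMI is held by 11.9% of e15.5 wells and 5.85% of p1 wells, and no *Slc17a7* UMI by 85.8% and 18.7%.

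*Slc17a8* was close to the limit of detection in proprioceptors. It gave 42 UMIs in all proprioceptor wells at e15.5, between 0 and 3.03 CPM per library with a median of 0.469 and 3 libraries at 0. At p1 it gave 79 UMIs, between 0 and 5.70 CPM with a median of 2.20 and 1 library at 0, which was the shallowest. The ages overlapped, and 38 of the 79 p1 UMIs came from library 1. A UMI was found in 6.53% of e15.5 wells and 13.1% of p1 wells, and in 0.852% and 3.06% after thinning. In background wells these shares were 0.686% and 0.458%, and 2 of those wells held 60 of their 61 UMIs; the other 435 held 1 UMI (0.0804 CPM), beside 1.08 CPM (exact Poisson 95% interval 0.778 to 1.46) in e15.5 proprioceptors. The gene fell below the filter on low counts and was not tested between the ages with it; with no filter its log2 change was 1.53 (SE 0.514, edgeR's adjusted p = 0.0190), an estimate set by few UMIs.

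The classes of sensory neurons in the e15.5 libraries allowed the proprioceptor level to be placed. Ordered by the mean of library sums, *Slc17a7* stood at 187 ± 35.2 CPM in p1 proprioceptors, 17.8 ± 5.04 in e15.5 proprioceptors, 9.43 ± 7.49 in other e15.5 sensory neuron wells and 0.811 ± 0.617 in background wells (SD; n = 6, 10, 10 and 10 libraries). Only the step between the p1 and e15.5 proprioceptors was free of overlap. For *Slc17a6* the same order gave 366 ± 62.8, 333 ± 44.6, 166 ± 92.0 and 62.7 ± 115 CPM, and every neighbouring pair overlapped.

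At e15.5, *Slc17a6* was higher in proprioceptors than in the other sensory neuron wells by 0.93 on the log2 scale (SE 0.260, edgeR's adjusted p = 0.0106). For *Slc17a7* the difference was 0.76 (SE 0.293, 95% interval 0.19 to 1.34, adjusted p = 0.0574), which missed the threshold. With all wells thinned to equal depth the *Slc17a6* difference was 0.43 and was not called (adjusted p = 0.20), and the *Slc17a7* difference was called with DESeq2, with no filter, with all 4 markers required and with clusters in place of markers (0.78 to 1.24). The setting with all 4 markers, which gave 1.24, also dropped other wells with exactly 2 of the genes. It cut the other sum of library 10 from 6 wells (977261 UMIs) to 3 wells (168311 UMIs). Without glia-bearing wells the differences were 0.44 for *Slc17a6* (adjusted p = 0.0107) and 0.49 for *Slc17a7* (adjusted p = 0.30), and without wells of high mitochondrial share that of *Slc17a7* was 0.47 (adjusted p = 0.21). Of the 11097 genes tested, 12.5% were called higher in proprioceptors and 13.5% lower. Without e15.5 library 10, whose other wells had the highest *Slc17a7* level (26.6 CPM), the *Slc17a7* difference was 1.13 with an adjusted p of 0.0050. The other wells are a mixture: 26 of the 82 held connective tissue genes at 5000 CPM or more, 26 more held nociceptor genes at 1000 CPM or more, 18 held mechanoreceptor genes at 1000 CPM or more, and 12 held none of these. These cuts were chosen after the values had been seen. Without the wells rich in connective tissue genes the *Slc17a6* difference was 0.66 (adjusted p = 0.0192) and the *Slc17a7* difference 0.58 (adjusted p = 0.12).

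The other wells were then split by these markers. The 12 wells with none of them held *Slc17a7* at 26.9 CPM pooled (exact Poisson 95% interval 17.6 to 39.5), a point level above that of e15.5 proprioceptors. This rested on 26 UMIs, of which 17 lay in 1 well. Their *Slc17a6* level was 251 CPM (220 to 284), and these wells were not tested as a group. Wells with nociceptor genes (26 wells, 8 libraries) held *Slc17a6* at 322 CPM pooled (exact Poisson 95% interval 298 to 347), beside 343 CPM in proprioceptors, and *Slc17a7* at 3.37 CPM (1.36 to 6.95), beside 19.3 CPM (17.9 to 20.7) in proprioceptors. In library sums of at least 3 wells (4 sums, 21 wells), *Slc17a7* was higher in proprioceptors by 2.57 on the log2 scale (SE 0.546, edgeR's adjusted p = 0.0019; 14.0% of genes were called higher), while for *Slc17a6* the difference was -0.01 (95% interval -0.26 to 0.24, adjusted p = 0.98).

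Wells with mechanoreceptor genes (18 wells, 8 libraries) held *Slc17a6* at 160 CPM (146 to 176) and *Slc17a7* at 13.9 CPM (9.91 to 19.1). In 3 sums of 10 wells, *Slc17a6* was higher in proprioceptors by 1.10 (SE 0.243, adjusted p = 0.0052; 7.08% of genes were called higher), and the *Slc17a7* difference was 0.46 (95% interval -0.26 to 1.18, adjusted p = 0.49), which leaves more than a doubling within its range. The contrast with nociceptors and that with mechanoreceptors share the proprioceptor sums, and the difference between them was not tested. *Slc17a8* gave 6 UMIs in the nociceptor group (2.89 CPM) and 10 in the mechanoreceptor group (3.57 CPM).

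**Figure D4:**
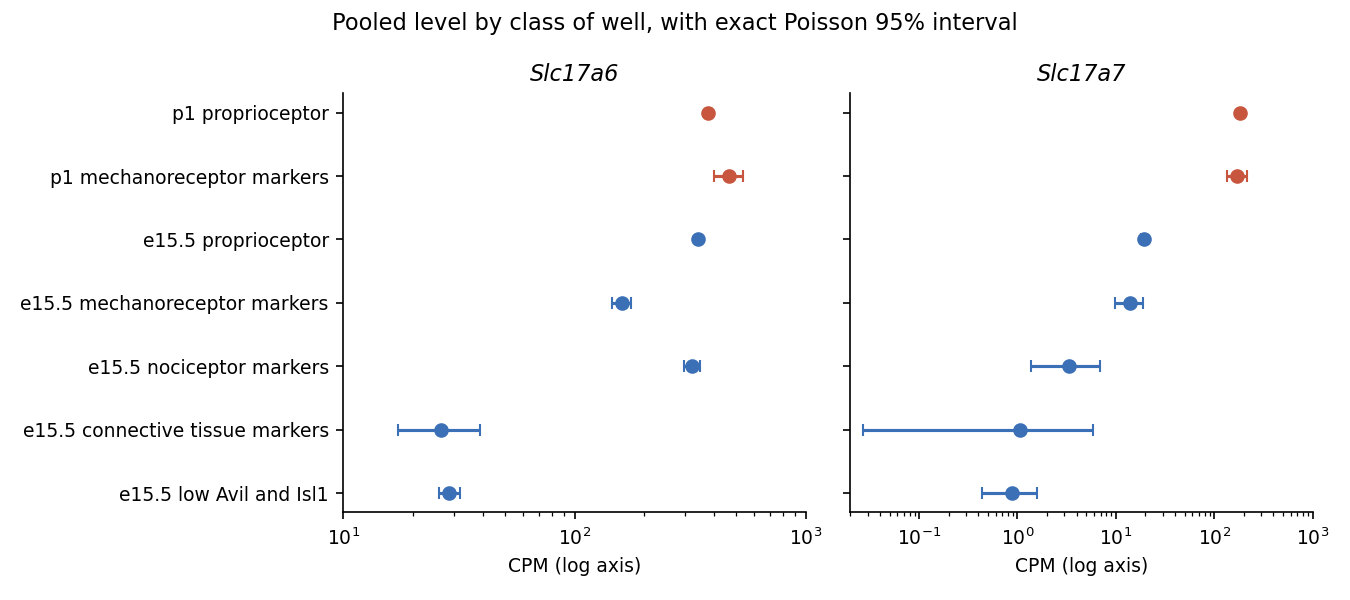
Pooled level of *Slc17a6* and *Slc17a7*, in CPM on log axes, for the named classes of well at p1 (red) and e15.5 (blue), with exact Poisson 95% intervals that cover counting error only. Other sensory neuron wells with none of the markers, 12 at e15.5 and 1 at p1, are not shown. For *Slc17a7* the p1 classes lie at 184 and 172 CPM, the e15.5 proprioceptor and mechanoreceptor wells at 19.3 and 13.9 CPM and nociceptor wells at 3.37 CPM; for *Slc17a6* the e15.5 nociceptor wells lie beside proprioceptors and the mechanoreceptor wells lower.

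At p1 the other sensory neuron wells were too few for a test. Of the 6, 5 held mechanoreceptor genes, and all of these came from library 2. They stood at 465 CPM of *Slc17a6* (401 to 535) and 172 CPM of *Slc17a7* (134 to 217), beside 367 and 195 CPM in the 78 proprioceptor wells of that library. The remaining well, of 62050 UMIs, held 3 *Slc17a6* UMIs and 0 *Slc17a7* UMIs. By clusters in place of markers, all 6 wells fell in clusters of proprioceptors.

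Among p1 proprioceptors, *Slc17a7* was lower in wells with *Tox*, used by the study to mark proprioceptors of back muscles, at 50 CPM or more. The 113 wells with *Tox* pooled to 149 CPM and the 246 without to 204 CPM, and the direction was the same in 4 of 4 libraries with at least 5 wells of each kind (log2 differences -0.81 to -0.22). At e15.5 the levels were 12.6 CPM in 104 wells and 21.9 CPM in 248, lower with *Tox* in 6 of 7 libraries. For *Slc17a6* the levels with and without *Tox* were 389 and 372 CPM at p1, higher with *Tox* in 3 of 4 libraries, and 394 and 323 CPM at e15.5, higher in 6 of 7. Wells with *Gabrg1* at 100 CPM or more, used in the same way for the hindlimb, held 191 CPM of *Slc17a7* at p1 (42 wells), beside 182 CPM in the 317 others, but within the 2 libraries with at least 5 wells of each kind it was lower with *Gabrg1* in both (log2 differences -0.32 to -0.08). At e15.5 *Slc17a7* stood at 20.0 CPM in 18 wells with *Gabrg1* and 19.2 CPM in 334 others. It was again lower with *Gabrg1* within both libraries with enough wells (log2 differences -0.34 to -0.09). For *Slc17a6* the levels with and without *Gabrg1* were 351 and 383 CPM at p1, but higher with *Gabrg1* within 2 of 2 libraries. At e15.5 they were 248 and 349 CPM, higher in 0 of 2. These splits were not tested.

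Transcripts of glia and the mitochondrial share moved with some of these wells. Glia genes summed to 100 CPM or more in 92 e15.5 and 123 p1 proprioceptor wells, and *Slc17a7* stood there at 16.4 and 180 CPM, beside 20.0 and 185 CPM in the wells below. Without the glia-bearing wells the age change of *Slc17a7* was 3.56, and without wells above the 0.75 quantile of the mitochondrial share it was 3.61. With only wells of at least 20000 UMIs it was 3.61 as well.

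The genes that make glutamate available and fill vesicles with it did not move as a block. Of a list of 40 such genes, 36 passed the filter, of which 16 were higher and 5 lower at p1 (58.3% called, beside 62.5% of all tested genes), and their median log2 change was 0.22, beside -0.03 over all genes. With library size only, 10 were higher and 12 lower. Of all called genes, 33.0% were then higher, beside 48.9% with TMM scaling, so the counts of the list and of all genes both moved with the scaling. The largest rise in the list was that of *Slc18a1*, at 2.78. For list genes, log2 changes are edgeR's after TMM scaling, while CPM values are means of library sums without it. A log2 change and the CPM beside it thus need not match.

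Among the proton pump genes 7 of 15 tested were higher and 2 lower (60% called, beside 62.5% of all tested genes, 30.5% higher and 32.0% lower). The subunit genes *Atp6v1b2*, from 334 to 423 CPM, and *Atp6v0e2*, from 282 to 367 CPM, were higher by 0.55 and 0.62. *Atp6v0d1* fell by 0.87, from 247 to 109 CPM, and *Atp6v1g1* fell by 0.91, from 134 to 56.1 CPM. In both falling genes the ages did not overlap, as for 20.1% of tested genes in that direction. *Atp6v0c* was listed at 0.261 and 0.395 CPM; near-identical copies may have taken its reads, so its level is uncertain.

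Among the 16 genes of glutamate synthesis and uptake, 6 were higher and 2 lower (50% called, beside 62.5% of all tested genes). *Slc38a1*, a glutamine transporter, rose by 0.90, from 129 to 212 CPM, and the neuronal glutamate transporter gene *Slc1a1* rose by 1.56, from 11.5 to 27.7 CPM. *Slc1a3*, the glial transporter GLAST, rose by 1.36, from 3.0 to 7.35 CPM. *Slc1a2*, the transporter GLT-1, fell by 1.00, from 33.4 to 14.5 CPM, and *Slc1a4*, a neutral amino acid transporter, fell by 0.87, from 52.2 to 28.1 CPM. *Sh3gl2*, which encodes endophilin A1, a protein of vesicle recycling that binds VGLUT1, rose by 1.49 (SE 0.125, adjusted p = 4.66e-09), from 53.7 to 131 CPM without overlap.

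**Figure D5:**
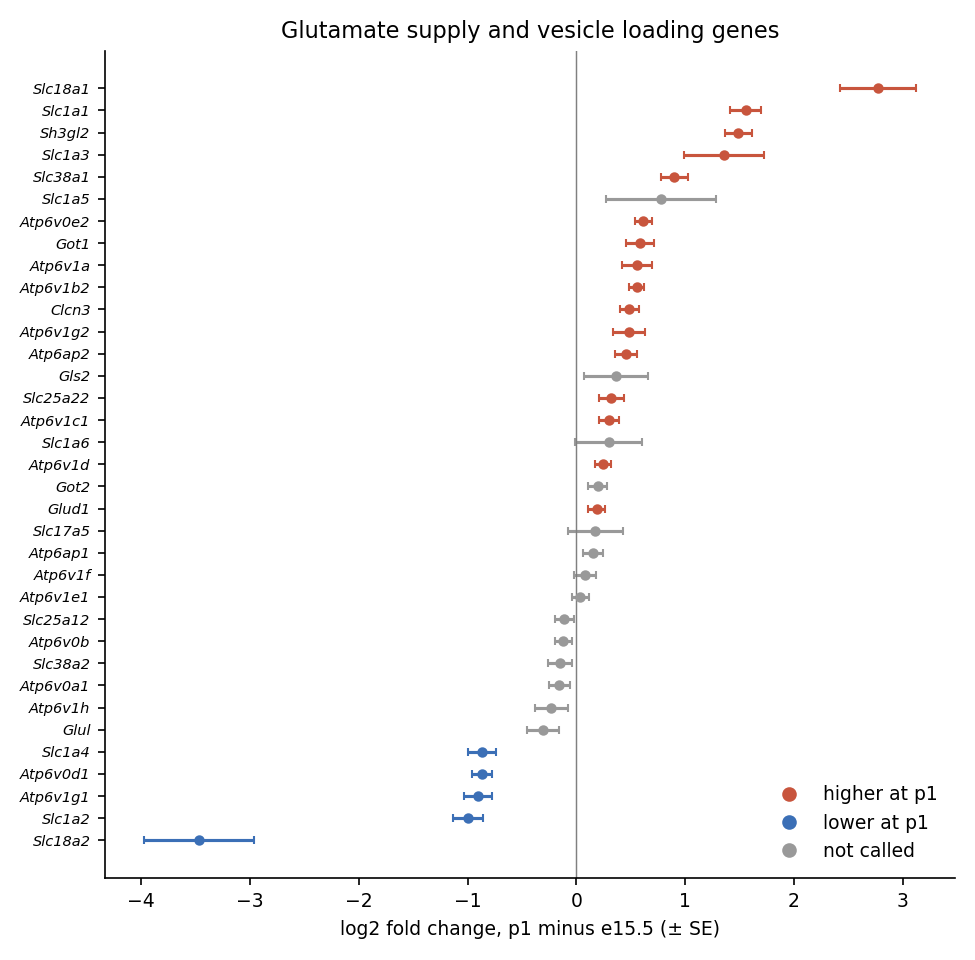
Log2 fold change from e15.5 to p1 in proprioceptor wells (edgeR, ± SE) for tested genes of glutamate supply and vesicle loading; red genes were called higher at p1, blue genes lower, and grey genes were not called. The changes run from -3.47 for *Slc18a2* to 2.78 for *Slc18a1*, and most lie within 1 of 0.

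Vesicular transporters for other transmitters were low at both ages. *Slc18a2*, which encodes the monoamine transporter VMAT2, fell by 3.47 (SE 0.507, adjusted p = 7.02e-06), from 5.30 to 0.288 CPM, with no overlap of libraries. *Slc18a1*, encoding VMAT1, was higher by 2.78 (SE 0.348, adjusted p = 1.04e-06), from 1.25 to 6.35 CPM, with overlap. *Slc17a5*, which encodes sialin, stood at 9.18 and 7.82 CPM (0.17, adjusted p = 0.57). *Slc17a9*, *Slc18a3* and *Slc32a1*, for nucleotides, acetylcholine, and GABA and glycine, had means under 1 CPM at both ages and were not tested.

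The genes whose levels ran most like *Slc17a7* were *Ndufa5*, *Map1a*, *Atp5k*, *Nefh* and *Lrrc49* (Pearson's r of log2 CPM 0.979 to 0.944, over 36 sums of both ages, all classes and background wells, among 15576 genes). *Map1a*, a microtubule-associated protein gene, went from 470 to 2509 CPM in the median proprioceptor library, and *Nefh*, the heavy neurofilament gene, from 215 to 2330 CPM. For *Slc17a6* they were *Dmxl2*, *Fbxo41*, *Dusp26* and *Camk2n2* (0.968 to 0.948). *Camk2n2*, which encodes an inhibitor of the kinase CaMKII, stood at 218 and 241 CPM in e15.5 and p1 proprioceptors and at 47.1 CPM in background wells. The sums share libraries and depth, so these values only describe likeness of pattern.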

How the data were processed

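Single cells of mouse DRG were profiled with CEL-Seq2. Per the study's methods the authors ran scruff to assign reads to wells, map them and make a table of UMI counts; mm10 and GRCm38 are named in the submitters' processing notes, and aligner, annotation and strand setting are not stated there or in the methods. The deposited values are these UMI counts, unnormalized, for every well. Libraries held 3701900 to 9299431 UMIs at e15.5 and 386517 to 8814472 at p1. Symbols came from GENCODE M21 (49326 of 49671 genes). Doublets were not called. No library repeated another (between libraries of an age, chi-square over degrees of freedom was at least 2.73 at e15.5 and 2.61 at p1).

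Wells were gated as described above, summed per library (at least 5 wells for ages, 3 for classes) and compared by the quasi-likelihood test of edgeR (version 4.0.16) after filterByExpr and TMM scaling, with Benjamini-Hochberg adjustment across the whole table and a threshold of 0.05, in R (version 4.3.3). SE is the log2 change over the square root of F. The step was tested on simulated data in which 200 genes changed 4-fold, up or down. It recovered 94.5% of them for ages (13720 genes) and 87.5% for classes (10840 genes). Since 62.5% of genes were called between the ages, this simulation cannot test TMM scaling where most genes change. Both classes of a library come from 1 preparation, so the library is also a block there (r of their deviations 0.04 to 0.73, median 0.25, over 10 pairs). Exact permutation tests over libraries used Python (version 3.11.15) and SciPy (version 1.17.1). The log2 ratio added 1 UMI to each gene. Alternatives were DESeq2 (version 1.42.0), other scaling, filters and gates, thinning, scran clusters (version 1.30.0) in place of marker gates, the replicate number as a block and leaving out each library. Named were the 3 transporters, up to 10 called list genes with the largest change, the other vesicular transporters, the markers and the 5 genes most like *Slc17a6* and *Slc17a7*; *Atp6v1b2*, *Atp6v0e2*, *Atp6v0c*, *Tox* and *Gabrg1* were named after values were seen. Genes and lists were chosen with earlier results of these data known. Some genes of the list and of those most alike are not reported here.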

Additional observations from a re-analysis of the deposited data

Results flagged for a closer look

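Of 20 groups of library values tested for a sample far from the others, 4 held one, where chance gives about 1 in 20. In the e15.5 background wells, *Slc17a6* reached 384.5 CPM in library 10. The share of p1 proprioceptor wells with a *Slc17a7* UMI was 81.8% in library 3, which had 11 such wells and the fewest UMIs. *Slc17a8* stood at 12.7 CPM in the other sensory neuron wells of e15.5 library 2 and at 30.1 CPM in the background wells of e15.5 library 3.

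Wells under 10000 UMIs entered no comparison but held transporter UMIs. In the 207 such wells at p1, *Slc17a6* pooled to 315 CPM (174 UMIs) and *Slc17a7* to 170.2 CPM (94 UMIs), near the levels of the gated proprioceptors. In the 89 such wells at e15.5, *Slc17a6* pooled to 218 CPM (67 UMIs), while *Slc17a7* gave 0 UMIs, which allows up to 12.0 CPM (exact Poisson 95% limit).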

How the results depend on the processing

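The age change of *Slc17a7* (3.36 to 3.82) and its share of UMIs were called under each alternative. Library size only gave 0.13 for the age change of *Slc17a6*, 10 higher and 12 lower list genes, and reversed *Glud1* (-0.0447) and *Atp6v1e1* (-0.19). No filter gave 0.25 for *Slc17a6* by age, 0.96 for the class difference of *Slc17a7* and 2541 genes higher in proprioceptors. Thinning gave 2154 higher and 2191 lower genes by age, 10 higher list genes, 443 and 499 genes by class, and a class difference of 0.43 for *Slc17a6*. It set the shares of wells at 88.1% and 94.2% (*Slc17a6*, e15.5 and p1), 14.2% and 81.3% (*Slc17a7*) and 0.852% and 3.06% (*Slc17a8*). Without glia-bearing wells the e15.5 shares were 99.6% and 74.2%, with all 4 markers 99.4% for *Slc17a6*, and with at least 20000 UMIs both p1 shares were 100%. The class difference of *Slc17a7* was called with DESeq2 (0.78), with all 4 markers and no other wells with exactly 2 of them (1.24), and with clusters (0.89). Against nociceptor wells only, chosen after seeing the data, it was 2.57, and that of *Slc17a6* was -0.0091; against mechanoreceptor wells only, 873 genes were lower. Of 923 settings of list genes, 870 left direction and call as they were, 32 lost a call, 19 gained one and 2 reversed. The causes were not tested.

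Leaving out each library gave 3.51 to 3.69 (*Slc17a7*) and 0.28 to 0.42 (*Slc17a6*) by age, 0.67 to 1.13 and 0.84 to 1.03 by class, and 3.14 to 3.42 for the ratio; of these, only the *Slc17a7* class call changed, without e15.5 library 10. Of the list genes, *Glud1*, *Glul*, *Got2*, *Slc25a22* and *Atp6v1h* each lost or gained a call without 1 library or another. Replicate numbers did not pair samples between ages (r -0.32 to 0.29 over 6 pairs; none best matched its own number); as a block they gave 3.80 and 0.39 by age and 3352 higher and 3567 lower genes, and the paired ratio gave 3.43 (exact sign-flip p = 0.0313). With the library as a block, the class comparison gave 1.12 for *Slc17a6* and 0.80 (adjusted p = 0.0524) for *Slc17a7*, with no call changed. The *Slc17a8* alternatives with a filter on low counts gave no value, since it did not pass. Depth limits *Slc17a8* and the nociceptor level of *Slc17a7*, which rests on 7 UMIs.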

Other observations

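The highest *Slc17a8* levels of the data lay outside the sensory neurons. Of the 61 *Slc17a8* UMIs in the 437 e15.5 background wells, 46 came from 1 well of library 3 and 14 from 1 well of library 4, or 2210 and 653 CPM; the other 435 wells held 1 UMI. Both wells, named after their values were seen, held no *Slc17a6* or *Slc17a7* UMI. They held 76 and 35 UMIs of *Pkd2l1*, a channel gene known from neurons that contact the cerebrospinal fluid, 27 and 33 of *Nkx6-1*, 6 and 28 of *Gata2* and 9 and 1 of *Gata3*, transcription factors of ventral spinal cord progenitors and interneurons. Of 960 wells at e15.5, 3 held at least 10 *Pkd2l1* UMIs, and 2 of those held *Slc17a8*; at p1 there was none. No UMI of *Slc32a1*, *Gad1* or *Gad2*, genes of GABA neurons, was found in either well. What these wells contained was not tested further.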
